A study of Caenorhabditis elegans with 18 samples.

Results

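Condensins are ring-shaped protein complexes that compact and separate chromosomes, and the 9 genes described here encode the subunits of the 3 condensins of Caenorhabditis elegans. They were taken as a fixed list (hcp-6, mix-1, smc-4, capg-1, capg-2, kle-2, dpy-26, dpy-27 and dpy-28), and each was read from probe sets whose platform annotation names that gene alone. All 9 were found, with 15 probe sets between them, among 17118 genes represented in this way. Where a gene had several probe sets, which held for 6 of the 9, the one with the highest mean over the 18 arrays was used, and strain differences are also given from the other. The probe sets used for smc-4, dpy-26 and dpy-27 are of the kind that can match more than 1 transcript. So are the other probe sets of hcp-6, mix-1, capg-1, kle-2 and dpy-27. None of the 9 genes lies on the X chromosome: hcp-6 and capg-1 are on chromosome I, mix-1 on II, smc-4, kle-2, dpy-27 and dpy-28 on III, dpy-26 on IV and capg-2 on V.

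RNA from whole hermaphrodites of the wild type N2 and of the mutant lin-35(n745) was measured on Affymetrix arrays in embryos, in L1 larvae and in L4 larvae, with 3 independently grown samples in each of the 6 groups and all worms kept at 20 °C on OP50 bacteria. lin-35 encodes the worm's retinoblastoma-type pocket protein, a repressor of transcription, and n745 is a premature stop allele carried by every cell of the animal. The design asks which transcripts the mutation alters in each stage, and whether the alteration is the same from stage to stage. Values are log2 RMA values, a relative scale on which levels of different genes cannot be compared. In whole animals, a change in how many cells carry a transcript cannot be told apart from a change in the amount per cell.

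Each condensin is built on a pair of SMC ATPases, bridged by a kleisin that holds a pair of HEAT-repeat subunits. Condensin I holds MIX-1, SMC-4, DPY-26, DPY-28 and CAPG-1, and condensin II holds MIX-1, SMC-4, HCP-6, CAPG-2 and KLE-2, and both act on mitotic and meiotic chromosomes. In the third complex DPY-27 takes the place of SMC-4 beside MIX-1, DPY-26, DPY-28 and CAPG-1, and this dosage compensation condensin binds both X chromosomes of hermaphrodites and lowers their transcription. MIX-1 is thus shared by all 3 complexes, and HCP-6, CAPG-2 and KLE-2 belong to condensin II alone.

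The lin-35 transcript was lower in all 9 lin-35(n745) arrays than in the N2 arrays of the same stage, by -1.38 ± 0.15 log2 units (SE, n = 3 per strain) in embryos, -1.27 ± 0.15 at L1 and -1.25 ± 0.15 at L4 (limma adjusted p = 2.07e-06, 3.29e-06 and 4.35e-06). Array medians ran from 6.20 to 6.39, arrays of a group correlated at 0.986 to 0.997, and 0 pairs of arrays held identical values. The stages read as labelled. The summed level of 14 embryonic patterning markers was 9483 to 10702 in embryo arrays and 1241 to 2365 in larval arrays (linear RMA units). That of 13 sperm markers was 25320 to 30652 at L4 and at most 1003 in the others. The sperm sum did not overlap between strains in larvae. It was 601 to 1003 in N2 and 462 to 535 in lin-35(n745) at L1. At L4 it was 25320 to 25475 in N2 and 26467 to 30652 in lin-35(n745). Of the 13, 3 were lower at L1 and 2 at L4, and 0 were higher (limma adjusted p under 0.05). Among all probe sets 6.94% were lower at L1 and 7.48% at L4. Within embryos the patterning sum did not overlap between strains, at 10077 to 10702 in N2 and 9483 to 9851 in lin-35(n745). There 2 of the 14 were lower (limma adjusted p under 0.05), sdz-10 (-0.68 log2 units) and hlh-14 (-0.60), and 0 were higher. Over all probe sets 3.78% were lower and 5.92% higher in embryos. Whether the collections of the strains were matched in age was not tested at any stage. Replicate 1 of both strains stood apart among the embryo arrays on a spiked-in hybridization control, BioDn, with log2 values of 10.23 and 10.55 against 12.20 to 12.29 in the other embryo arrays, so embryo results are also given without that pair.

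In L1 larvae the 3 genes of condensin II alone and both SMC genes of the mitotic condensins were higher in lin-35(n745), hcp-6 by 2.93-fold and capg-2 by 2.38-fold, together with a smaller rise of capg-1. The other 3 genes, dpy-26, dpy-27 and dpy-28, did not pass the test at any stage. In all, 3 of 9 genes were higher and 0 lower in embryos, 6 higher and 0 lower at L1, and 5 higher and 0 lower at L4 (limma, adjusted p under 0.05). The embryo count was 1 or 2 whenever any 1 of the 6 embryo arrays was left out. Over all 22548 probe sets tested, 9.7% were called in embryos (5.92% higher, 3.78% lower), 15.2% at L1 (8.24% higher, 6.94% lower) and 15.2% at L4 (7.77% higher, 7.48% lower). The median difference of the 9 genes was 0.11, 0.63 and 0.56 log2 units, beside -0.03, -0.04 and -0.03 for all probe sets.

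**Figure D1:**
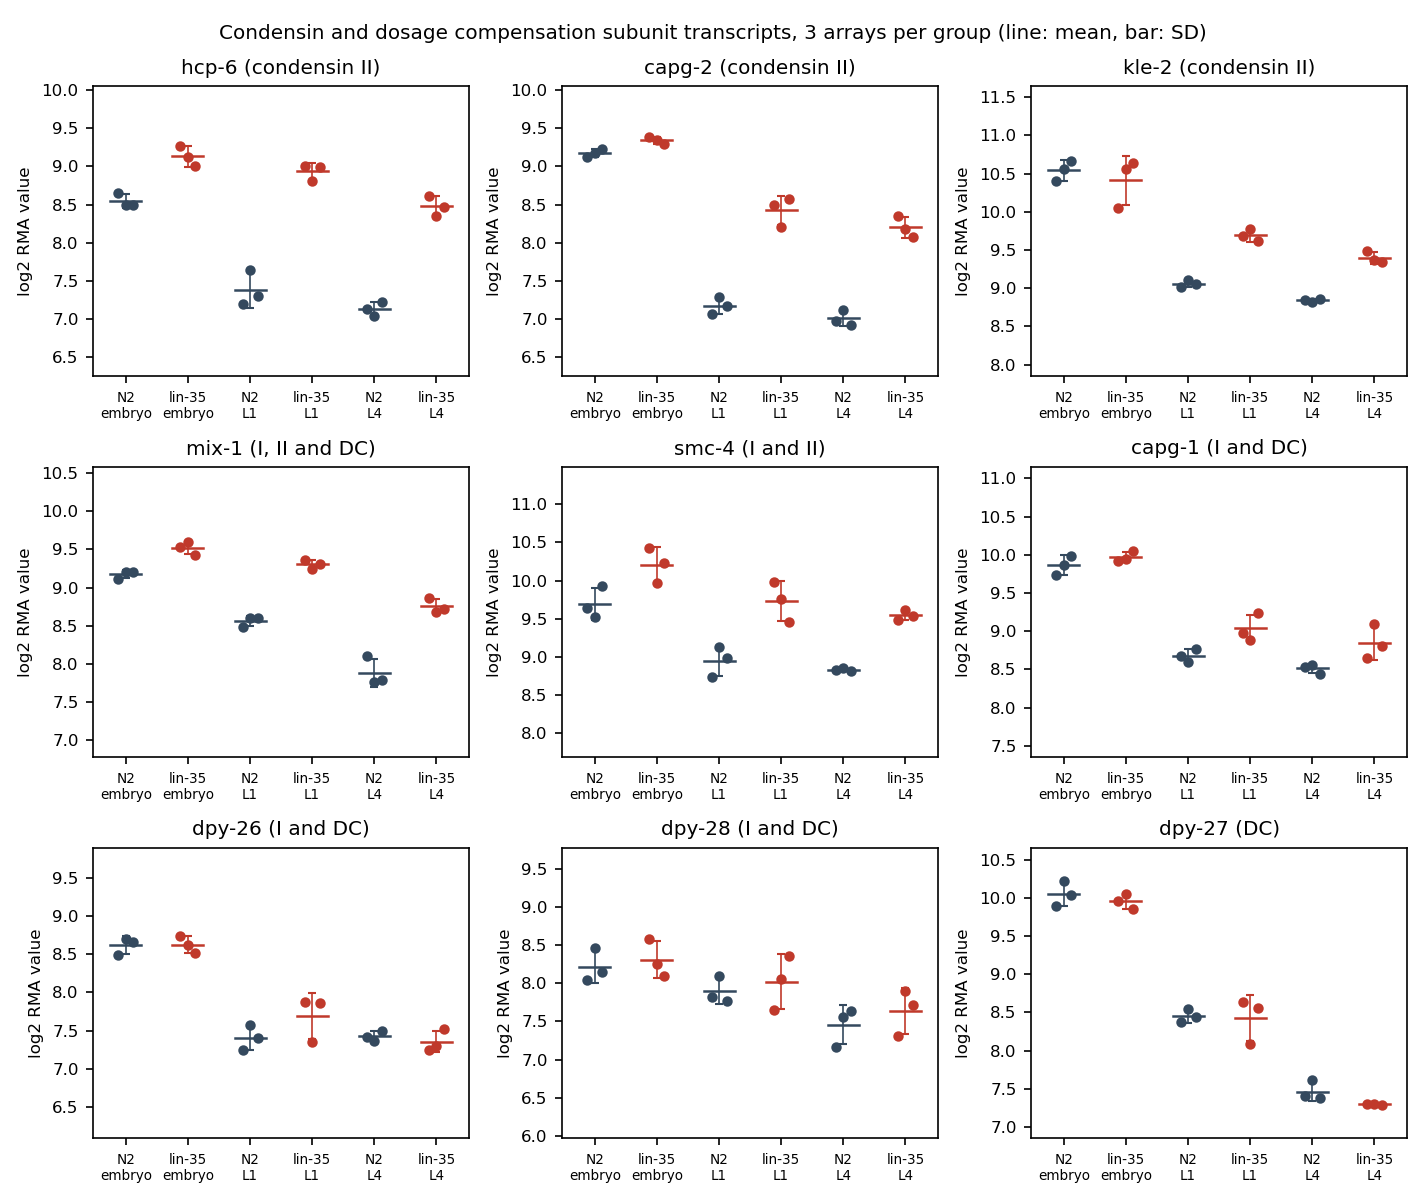
Log2 RMA value of each of the 9 subunit transcripts, 1 point per array, by group of 3 arrays, with the group mean as a line (N2 dark, lin-35(n745) red). In the hcp-6 panel the lin-35(n745) L1 arrays sit at 8.80 to 9.01, above the N2 L1 arrays at 7.20 to 7.64, whereas the dpy-27 panel steps down with stage in both strains.

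The gene with the largest difference among the 9 was hcp-6, which encodes the HEAT-repeat subunit of condensin II required for chromosome condensation and for resisting the twisting of centromeres. At L1 its log2 values were 7.20, 7.64 and 7.31 in N2 and 9.01, 8.80 and 8.99 in lin-35(n745). At L4 they were 7.13, 7.04 and 7.22 in N2 and 8.61, 8.35 and 8.47 in lin-35(n745). In embryos they were 8.65, 8.49 and 8.49 in N2 and 9.27, 9.12 and 9.0 in lin-35(n745). The strains did not overlap at any stage, and every mutant array was the higher. The difference was 1.55 ± 0.12 log2 units at L1 (limma adjusted p = 4.5e-09), 1.35 ± 0.12 at L4 (adjusted p = 4.68e-08) and 0.59 ± 0.12 in embryos (adjusted p = 0.00224). The other hcp-6 probe set gave 2.01 ± 0.13 at L1 and 1.92 ± 0.13 at L4 (limma adjusted p = 6.55e-10 and 1.49e-09), but 0.18 in embryos, which did not pass (adjusted p = 0.49).

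The second HEAT-repeat subunit of condensin II is encoded by capg-2. Its L1 values were 7.07, 7.29 and 7.17 in N2 and 8.50, 8.21 and 8.57 in lin-35(n745). Its L4 values were 6.98, 7.12 and 6.92 in N2 and 8.35, 8.18 and 8.07 in lin-35(n745). Both larval stages separated the strains without overlap, by 1.25 ± 0.11 and 1.19 ± 0.11 log2 units (limma adjusted p = 2.88e-08 and 6.58e-08). In embryos the values were 9.12, 9.18 and 9.23 in N2 and 9.38, 9.35 and 9.29 in lin-35(n745), again without overlap. That embryo difference was small, 0.17 with a 95% interval from -0.05 to 0.39, and did not pass the test (limma adjusted p = 0.397).

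The kleisin of condensin II is encoded by kle-2. Its L1 values were 9.02, 9.11 and 9.05 in N2 and 9.68, 9.78 and 9.62 in lin-35(n745), and its L4 values were 8.84, 8.82 and 8.85 in N2 and 9.49, 9.36 and 9.35 in lin-35(n745). The mutant arrays were the higher at both larval stages, by 0.63 ± 0.12 and 0.56 ± 0.12 log2 units (limma adjusted p = 0.00102 and 0.00274). The other probe set gave 0.48 ± 0.10 and 0.36 ± 0.10 (limma adjusted p = 0.00248 and 0.0197). In embryos the values overlapped, at 10.40, 10.56 and 10.67 in N2 and 10.05, 10.56 and 10.64 in lin-35(n745). The embryo difference was -0.13 with a 95% interval from -0.38 to 0.13 (limma adjusted p = 0.609).

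The SMC subunit present in all 3 complexes, mix-1, was higher in lin-35(n745) at each stage. Its L1 values were 8.48, 8.60 and 8.61 in N2 and 9.36, 9.25 and 9.31 in lin-35(n745), a difference of 0.75 ± 0.10 (limma adjusted p = 1.46e-05). Its L4 values were 8.10, 7.76 and 7.79 in N2 and 8.87, 8.68 and 8.72 in lin-35(n745), a difference of 0.87 ± 0.10 (limma adjusted p = 1.99e-06). In embryos they were 9.12, 9.21 and 9.21 in N2 and 9.53, 9.59 and 9.43 in lin-35(n745). The strains did not overlap at any stage. The embryo difference of 0.34 ± 0.10 (limma adjusted p = 0.0323) no longer passed without any one of 5 of the 6 embryo arrays, the exception being lin-35(n745) replicate 3. On the other mix-1 probe set the differences were 0.26 in embryos, 0.37 at L1 and 0.93 at L4 (limma adjusted p = 0.147, 0.0223 and 2.26e-06).

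The SMC partner of MIX-1 in condensins I and II, smc-4, read 8.74, 9.13 and 8.98 in N2 and 9.98, 9.76 and 9.46 in lin-35(n745) at L1. At L4 it read 8.82, 8.85 and 8.82 in N2 and 9.49, 9.62 and 9.54 in lin-35(n745). The mutant arrays lay above the N2 arrays at both stages, by 0.78 ± 0.14 and 0.72 ± 0.14 log2 units (limma adjusted p = 0.000462 and 0.0011). In embryos it read 9.64, 9.52 and 9.93 in N2 and 10.43, 9.97 and 10.23 in lin-35(n745), a difference of 0.51 ± 0.14 (limma adjusted p = 0.023). The embryo call ended without N2 replicate 1 or 2 or lin-35(n745) replicate 1 or 3, with limma adjusted p from 0.0632 to 0.134. Without embryo replicate 1 of both strains, hcp-6 stayed called at 0.57 (limma adjusted p = 0.0232), whereas mix-1 at 0.31 and smc-4 at 0.37 did not pass (adjusted p = 0.187 and 0.247).

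The HEAT-repeat subunit shared by condensin I and the dosage compensation condensin, capg-1, differed least among the 6 genes called at L1. Its values there were 8.67, 8.59 and 8.77 in N2 and 8.98, 8.89 and 9.24 in lin-35(n745), without overlap. The difference of 0.36 ± 0.12 log2 units (limma adjusted p = 0.0417) missed the threshold without any one of 5 of the 6 L1 arrays and on the other probe set, which gave 0.08 (adjusted p = 0.708). It also missed it after array centring (0.31, limma adjusted p = 0.074) and quantile normalization (0.33, adjusted p = 0.063). At L4 the values were 8.53, 8.56 and 8.45 in N2 and 8.65, 9.09 and 8.81 in lin-35(n745), again without overlap. That difference of 0.34 ± 0.12 just missed the threshold (limma adjusted p = 0.0551) and passed it without lin-35(n745) replicate 1 (0.44, adjusted p = 0.0225). In embryos the difference was 0.11, with a 95% interval from -0.14 to 0.35.

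The kleisin of condensin I and of the dosage compensation condensin, dpy-26, overlapped between the strains at each stage. It read 8.48, 8.70 and 8.66 in N2 and 8.74, 8.62 and 8.52 in lin-35(n745) embryos, and 7.42, 7.37 and 7.50 in N2 and 7.25, 7.30 and 7.52 in lin-35(n745) at L4. The 95% interval of the difference ran from -0.26 to 0.28 in embryos and from -0.34 to 0.20 at L4. At L1 the values were 7.24, 7.57 and 7.41 in N2 and 7.88, 7.35 and 7.86 in lin-35(n745), with replicate 2 the low mutant array. The L1 difference of 0.29 ± 0.13 did not pass (limma adjusted p = 0.154), and without that array it was 0.46 and passed (adjusted p = 0.00871).

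The SMC protein particular to dosage compensation is encoded by dpy-27. Its L1 values were 8.37, 8.54 and 8.44 in N2 and 8.64, 8.09 and 8.56 in lin-35(n745), which overlapped. Its embryo values were 9.90, 10.22 and 10.03 in N2 and 9.96, 10.05 and 9.85 in lin-35(n745), which also overlapped. At L4 the values were 7.40, 7.61 and 7.38 in N2 and 7.30, 7.30 and 7.29 in lin-35(n745), so that each mutant array was the lower. The differences were -0.09, -0.02 and -0.17 in embryos, L1 and L4, and did not pass (limma adjusted p = 0.746, 0.936 and 0.457). The 95% intervals ran from -0.36 to 0.17, from -0.28 to 0.24 and from -0.43 to 0.09, so each leaves out a rise as large as that of kle-2 at L1. The other dpy-27 probe set gave -0.17, 0.03 and -0.03 (limma adjusted p = 0.684, 0.937 and 0.96).

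The remaining HEAT-repeat subunit of condensin I and of dosage compensation, dpy-28, had the widest intervals. Its embryo values were 8.05, 8.46 and 8.14 in N2 and 8.58, 8.25 and 8.10 in lin-35(n745). Its L1 values were 7.82, 8.09 and 7.77 in N2 and 7.65, 8.06 and 8.36 in lin-35(n745), and its L4 values 7.16, 7.56 and 7.64 in N2 and 7.30, 7.89 and 7.71 in lin-35(n745). The strains overlapped at each stage. The differences of 0.09, 0.12 and 0.18 did not pass (limma adjusted p = 0.846, 0.717 and 0.62), and their intervals reached up to 0.48, 0.51 and 0.57, so a rise of the size seen for mix-1 in embryos was not detectable for this gene. The other dpy-28 probe set gave 0.33, -0.16 and 0.08 (limma adjusted p = 0.348, 0.634 and 0.87).

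**Figure D2:**
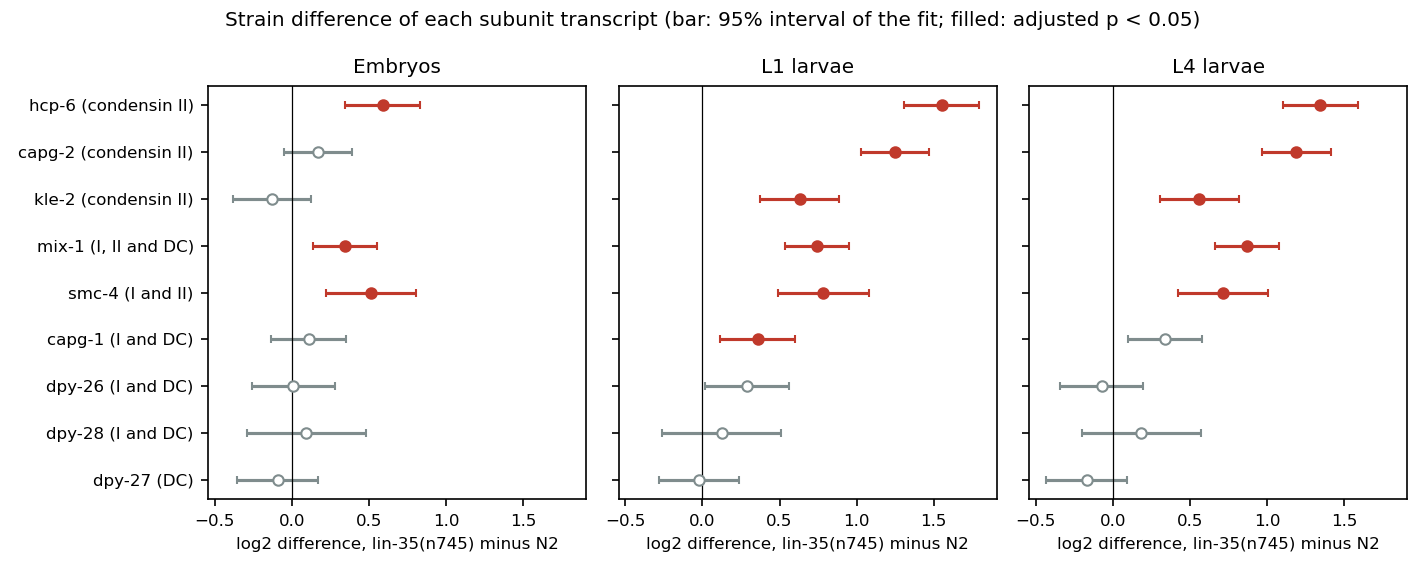
Strain difference of each subunit transcript in embryos, L1 and L4 larvae, lin-35(n745) minus N2 in log2 units, with the 95% interval of the limma fit as a bar and filled points where adjusted p was under 0.05. At L1 the filled points run from 0.36 for capg-1 to 1.55 for hcp-6, and dpy-27 sits at -0.02.

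Without regard to the test, the strains did not overlap for 4 genes in embryos (hcp-6, mix-1, smc-4 and capg-2), for 6 at L1 and for 7 at L4. Each of those genes was higher in the mutant, except dpy-27 at L4. Over all probe sets the strains did not overlap for 25.8% in embryos, 26.5% at L1 and 35.9% at L4.

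Because SMC-4 and DPY-27 are alternative partners of MIX-1, their log2 values were also subtracted within each array, a comparison chosen after the values had been seen. The smc-4 minus dpy-27 difference ran from -0.69 to -0.10 in N2 and from -0.09 to 0.47 in lin-35(n745) embryos, from 0.37 to 0.58 and from 0.90 to 1.68 at L1, and from 1.24 to 1.44 and from 2.19 to 2.31 at L4. At each stage the lowest mutant array lay above the highest N2 array. The shift between strains was 0.61, 0.81 and 0.89 log2 units in embryos, L1 and L4, given as a description with no test, since the pair was picked for its values. Both probe sets are of the kind that can match more than 1 transcript, and whether either reads the other gene was not tested. The subtraction does not give the relative amounts of the transcripts.

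For 4 genes the strain difference itself changed with stage. From embryo to L1 it grew for 3 of 9 genes, capg-2 by 1.08 ± 0.15 log2 units, hcp-6 by 0.97 ± 0.17 and kle-2 by 0.76 ± 0.17 (limma adjusted p = 6.07e-05, 0.000637 and 0.00729). These are the 3 genes of condensin II alone. Such growth was not particular to them. It was also called for 10 of 16 genes that work with condensin on dividing chromosomes, with a median of 0.59 over the 16. Of 11 genes of cohesin and the SMC-5 and SMC-6 complex it was called for 3, and in both lists 0 shrank. Across all probe sets 9.2% were called in this comparison, 4.83% with a difference that grew. Between embryo and L4 it grew for the same 3 genes and for mix-1, by 1.02 ± 0.15 for capg-2, 0.76 ± 0.17 for hcp-6, 0.69 ± 0.17 for kle-2 and 0.53 ± 0.14 for mix-1 (limma adjusted p = 0.000127, 0.00553, 0.0146 and 0.0215), beside 7.74% of all probe sets called and 3.85% that grew. The mix-1 call ended without lin-35(n745) embryo replicate 3, N2 L4 replicate 2 or 3, or lin-35(n745) L4 replicate 1 (adjusted p from 0.0553 to 0.073). These 2 comparisons share the embryo arrays. Between L1 and L4 the test called 0 of 9 genes, beside 6.72% of all probe sets, and the other mix-1 probe set passed with a difference that grew by 0.56 (limma adjusted p = 0.0286). On the other hcp-6 probe set the growth from embryo was 1.83 to L1 and 1.74 to L4.

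From embryo to L1 most of these transcripts fell in both strains. In N2, 8 of 9 were lower at L1 than in embryos, where 33.6% of all probe sets were lower and 40.8% higher. The median change of the 9 genes was -1.19 log2 units, beside 0.13 for all probe sets. capg-2 fell by 2.0 ± 0.11 log2 units, dpy-27 by 1.60 ± 0.13 and kle-2 by 1.48 ± 0.12 (limma adjusted p = 9.59e-13, 4.57e-10 and 9.71e-10). dpy-28 changed by -0.32 ± 0.18 and did not pass (limma adjusted p = 0.124). In lin-35(n745), 6 of 9 were lower at L1 than in embryos, beside 32.9% of all probe sets that were lower and 37.4% that were higher. There capg-2 fell by 0.91 ± 0.11 and kle-2 by 0.72 ± 0.12, and dpy-27 fell by 1.53 ± 0.13. The values of hcp-6 (-0.20) and mix-1 (-0.21) did not pass in the mutant (limma adjusted p = 0.14 and 0.0634), beside -1.16 and -0.62 in N2. On the other probe sets of these genes both fell in the mutant as well, by 0.55 and 0.97 (limma adjusted p = 0.00114 and 9.55e-08), beside -2.37 and -1.08 in N2. After quantile normalization the embryo to L1 change in N2 was -0.26 for mix-1 and -0.44 for smc-4, and that of smc-4 in lin-35(n745), -0.47 as deposited, became -0.29 and did not pass (limma adjusted p = 0.092).

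From L1 to L4, 2 of 9 genes fell in N2, dpy-27 by 0.99 ± 0.13 and mix-1 by 0.68 ± 0.10 log2 units (limma adjusted p = 1.59e-06 and 9.87e-06), beside 24% of all probe sets that fell and 21.2% that rose. That count of 2 is not distinguished from the share of all probe sets that fell. In lin-35(n745) 4 of 9 fell, beside 23.7% of all probe sets that fell and 19.5% that rose, dpy-27 by 1.13 ± 0.13, mix-1 by 0.55 ± 0.10, hcp-6 by 0.46 ± 0.12 and dpy-26 by 0.34 ± 0.13 (limma adjusted p = 2.56e-07, 0.000108, 0.00301 and 0.041). The dpy-26 call ended without any one of 4 of the 6 arrays behind it. The weak second probe sets of dpy-27 (4.66 to 5.90) and dpy-28 (5.44 to 6.61) did not follow the embryo to L1 fall, with changes in N2 of 0.03 and 0.64 log2 units, the second of which passed as a rise (limma adjusted p = 0.00541). On the other probe sets hcp-6 and dpy-28 also fell from L1 to L4 in N2, by 0.48 and 0.71 (limma adjusted p = 0.00576 and 0.00444).

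The order of the 6 groups differed accordingly. For hcp-6 the mean levels ran from 9.13 ± 0.13 (SD, n = 3) in lin-35(n745) embryos through 8.93 ± 0.11 in lin-35(n745) L1, 8.54 ± 0.09 in N2 embryos and 8.48 ± 0.13 in lin-35(n745) L4 to 7.38 ± 0.23 in N2 L1 and 7.13 ± 0.09 in N2 L4. On the other probe sets of hcp-6 and mix-1, N2 embryos lay above lin-35(n745) L1 without overlap, at 8.93 ± 0.06 against 8.56 ± 0.25 and at 8.90 ± 0.08 against 8.20 ± 0.17. On the probe set used for hcp-6, neighbours overlapped between the first pair, the middle pair and the last pair of that order. mix-1 had the same order, from 9.52 ± 0.08 to 7.88 ± 0.19, without overlap between neighbours. smc-4 also had it, from 10.21 ± 0.23 to 8.83 ± 0.02, with overlap at each step except between lin-35(n745) L4 and N2 L1. For capg-2 and kle-2 both embryo groups led, then the mutant larvae, then the N2 larvae, from 9.34 ± 0.04 to 7.01 ± 0.10 and from 10.54 ± 0.14 to 8.84 ± 0.02. The strains overlapped in embryos for kle-2, and L1 overlapped L4 within each strain for capg-2. For capg-1 that arrangement ran from 9.97 ± 0.07 to 8.51 ± 0.06, with overlap between the embryo groups and between neighbours from lin-35(n745) L1 to N2 L1. dpy-27 was ordered by stage, from 10.05 ± 0.16 in N2 embryos to 7.30 ± 0.01 in lin-35(n745) L4, and its strains overlapped in embryos and at L1. For dpy-26 the embryo groups, at 8.62 ± 0.11 and 8.62 ± 0.12, stood above 4 overlapping larval groups between 7.36 and 7.69. For dpy-28 all neighbours overlapped, from 8.31 ± 0.24 to 7.45 ± 0.26.

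Some germline markers differed strongly between the strains at each stage, and most did not pass the test. The summed level of 20 germline markers was 5142 to 5766 in N2 L1 and 13988 to 15157 in lin-35(n745) L1, and 19618 to 20206 and 23499 to 24496 at L4 (linear RMA units). In embryos it was 12216 to 13017 in N2 and 13826 to 14710 in lin-35(n745). At L1, 6 of the 20 were called higher and 3 lower, with the same counts at L4, and in embryos 4 were higher and 0 lower. The shares over all probe sets were 8.24% higher and 6.94% lower at L1, 7.77% and 7.48% at L4, and 5.92% and 3.78% in embryos. The median difference of the 20 was -0.02 in embryos, 0.14 at L1 and -0.03 at L4. The highest at L1 were pgl-3 (4.81 log2 units) and pgl-1 (3.25), which encode P granule proteins, and him-3 (4.48) and syp-1 (3.46), which encode proteins of meiotic chromosomes. The 3 germline markers called lower at L1 were wago-1 (-0.68), gld-1 (-0.52) and deps-1 (-0.40). In embryos the 4 called higher were glh-1 (1.88), pgl-3 (1.63), syp-1 (1.46) and pgl-1 (0.44). The sum of 12 oocyte markers overlapped between the strains at L1, at 1767 to 2315 in N2 and 1915 to 2192 in lin-35(n745). It was higher in the mutant in embryos, at 13052 to 15125 and 15658 to 16510, and at L4, at 5614 to 5847 and 6455 to 6808, with 1 of the 12 called higher and 1 lower in embryos, 3 higher and 3 lower at L1, and 0 called at L4. The sum of 10 intestine markers was higher in the mutant larvae, at 30957 to 33286 in N2 and 35242 to 37798 in lin-35(n745) at L1, and 39198 to 40158 and 46139 to 46987 at L4. Its members went both ways, with 3 higher and 4 lower at L1 (median -0.14) and 4 higher and 2 lower at L4 (median 0.07). The sum of 10 neuron markers was higher in the mutant without overlap at each stage, at 7109 to 7339 and 8335 to 8671 in embryos, 13784 to 13871 and 14438 to 18776 at L1, and 6083 to 6613 and 7012 to 7278 at L4, with 3, 0 and 1 of the 10 called higher and 0 lower. A count of 1 among the 12 oocyte or the 10 neuron markers is not distinguished from the shares over all probe sets. The part of these markers in the condensin differences was not tested.

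The transcripts of proteins that load the dosage compensation condensin onto X, or act with it, differed in few cases. SDC-2, SDC-3 and SDC-1 recruit the complex with DPY-30, DPY-21 is a histone demethylase within it, and SET-1 and SET-4 are histone methyltransferases that mark X. Of these 7 genes, 0 were higher and 1 lower in lin-35(n745) embryos, 2 were higher at L1 and 1 was higher at L4. Over all probe sets 5.92% were higher and 3.78% lower in embryos, 8.24% higher at L1 and 7.77% higher at L4, and a count of 1 among 7 genes is not distinguished from such shares. sdc-2 rose at L1 by 0.52 ± 0.11 log2 units and sdc-1 by 0.52 ± 0.14 (limma adjusted p = 0.00152 and 0.0153), sdc-3 rose at L4 by 0.32 ± 0.10 (adjusted p = 0.03), and dpy-30 fell in embryos by 0.32 ± 0.10 (adjusted p = 0.0426). The other sdc-2 probe set gave 0.19 at L1 and did not pass (limma adjusted p = 0.35). At L1 sdc-2 read 7.51, 7.20 and 7.44 in N2 and 7.83, 7.80 and 8.08 in lin-35(n745), without overlap. Its L4 difference was -0.04 (limma adjusted p = 0.872). dpy-21, set-1 and set-4 passed at no stage, with differences between -0.11 and 0.19, although the other dpy-21 probe set was higher at L1 by 0.52 (limma adjusted p = 0.0378). The medians of the 7 differences were -0.01, 0.19 and -0.03 in embryos, L1 and L4.

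Upstream, among 12 genes of the X signal and of sex determination, 2 were lower in lin-35(n745) embryos, 1 was higher at L1 and 0 were called at L4. Over all probe sets 3.78% were lower in embryos, 8.24% higher at L1 and 15.2% called at L4, so the larval counts are near or below the background. The lower ones were xol-1, the switch that promotes male fate and blocks dosage compensation, at -0.55 ± 0.13 log2 units, and sea-1, a T-box activator of xol-1, at -0.44 ± 0.12 (limma adjusted p = 0.00795 and 0.0278). The sum of embryonic patterning markers was also lower in the mutant embryos. Any part of embryo age in the lower xol-1 and sea-1 values was not tested. fem-3, which promotes male and sperm fate, was higher at L1 by 0.49 ± 0.11 (limma adjusted p = 0.0053).

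Among genes that work with condensin on dividing chromosomes, 14 of 16 were higher in lin-35(n745) at L1 and 13 of 16 at L4, with 0 lower at both stages and median differences of 0.78 and 0.60 log2 units. In embryos 2 were higher and 1 lower, with a median of 0.12. At L1 icp-1, the INCENP scaffold of the Aurora B kinase AIR-2, rose by 1.16 ± 0.11 (limma adjusted p = 7.34e-08), followed by the centromere protein gene hcp-4 (0.92 ± 0.11), air-2 (0.91 ± 0.13) and the Polo kinase plk-1 (0.90 ± 0.13). At L4 the mitotic kinase cdk-1 rose by 0.91 ± 0.10 (limma adjusted p = 2.26e-06), followed by icp-1 (0.86 ± 0.11), the kinesin bmk-1 (0.73 ± 0.10) and the topoisomerase top-2 (0.72 ± 0.11). Of 11 measured genes of cohesin and the SMC-5 and SMC-6 complex, out of 14 listed, 5 were higher at L1, 2 at L4 and 1 in embryos. None of the 11 was called lower. Over all probe sets 8.24% were higher at L1, 7.77% at L4 and 5.92% in embryos, where 3.78% were lower. The embryo counts of both lists are not distinguished from such shares. smc-5 rose by 1.14 ± 0.10 at L1 and the cohesin kleisin coh-3 by 1.47 ± 0.12 (limma adjusted p = 4.72e-08 and 9.35e-09).

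**Figure D3:**
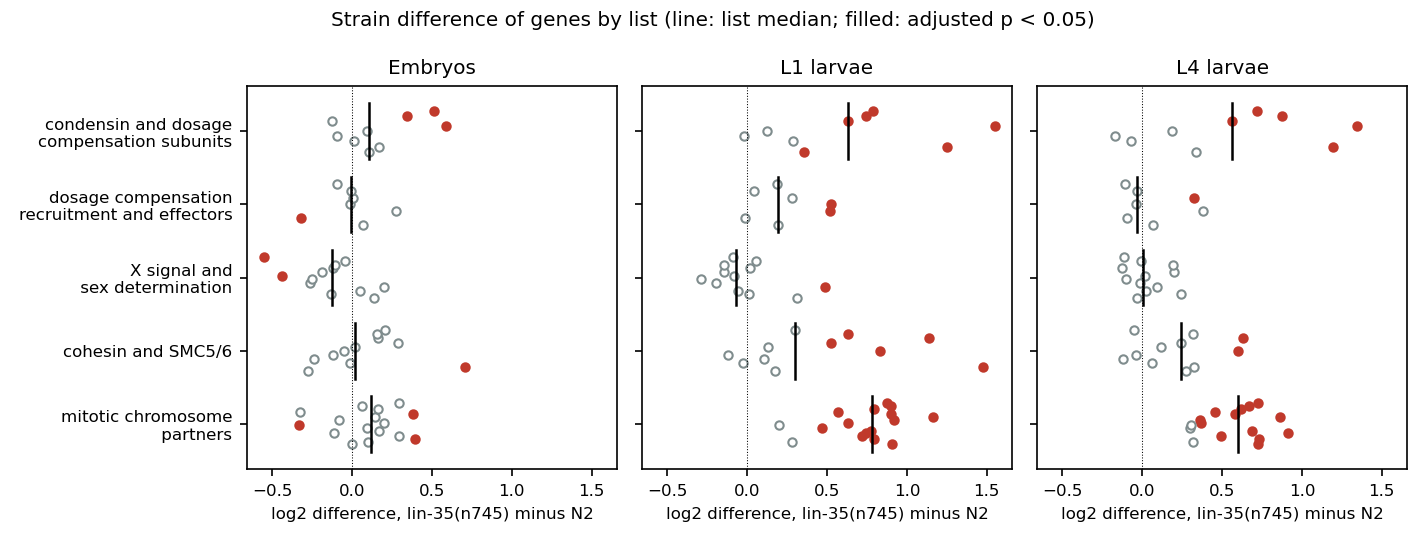
Strain difference, lin-35(n745) minus N2 in log2 units, of each measured gene of the 9 condensin subunits and of the related lists, in embryos, L1 and L4, with filled points where adjusted p was under 0.05 and a line at each list's median. At L1 the medians are 0.63 for the condensin subunits, 0.78 for the mitotic partners, 0.30 for cohesin and related genes, and 0.19 for the dosage compensation recruiters.

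Since the dosage compensation condensin acts on X, the strain difference was also read by chromosome, over 2352 X-linked and 14718 autosomal genes. At L1, 5.53% of X genes were called higher and 9.18% lower in lin-35(n745), beside 9.25% and 6.43% of autosomal genes. At L4 the shares were 5.27% and 9.35% on X and 8.73% and 7.92% on autosomes. In embryos they were 6.55% and 3.23% on X and 6.18% and 4.27% on autosomes. The median difference was -0.04 on X and -0.03 on autosomes at L1, and -0.05 and -0.03 at L4. These shares are descriptions, since genes are not replicates.

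Within each array, the median value of X genes minus that of autosomal genes was 0.52 to 0.54 in N2 and 0.38 to 0.45 in lin-35(n745) at L1, and 0.00258 to 0.05 and -0.06 to -0.02 at L4, without overlap. The strain differences were -0.12 and -0.07, each with p = 0.1 in an exact two-sided permutation test, the smallest that 3 against 3 allows. In embryos the strains overlapped, at 0.42 to 0.43 and 0.40 to 0.47 (exact permutation p = 0.6). Permuting strain within stage over all 18 arrays gave a mean of -0.06 with exact p = 0.00775. That mean joins a difference of 0.01 in embryos, in the opposite direction, with the 2 larval differences. This comparison too was chosen after other values had been seen. The permutation p-values are therefore given as description, and no conclusion is drawn from them. The array-level shifts of -0.12 and -0.07 are not the typical strain difference of an X gene. Gene by gene, the median strain difference was -0.04 on X and -0.03 on autosomes at L1, and -0.05 and -0.03 at L4. None of the 20 germline markers is on X, and their summed level rose with the same larval strain contrast. The part of that rise in the X shift was not tested.

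**Figure D4:**
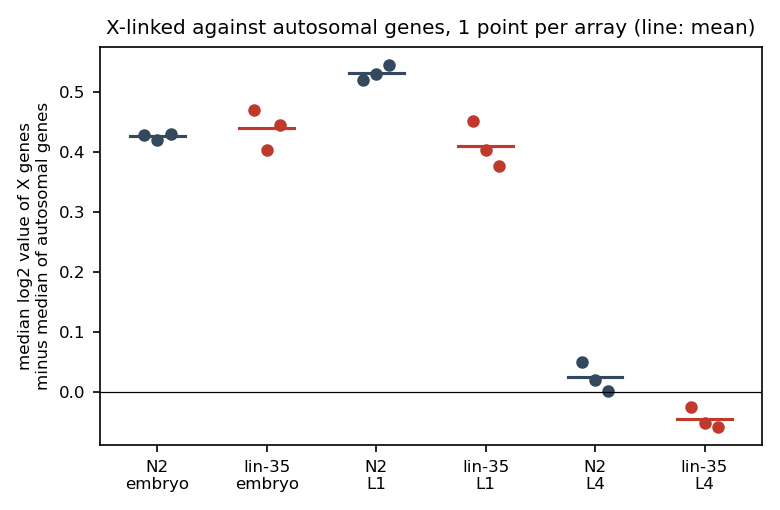
Median log2 value of X-linked genes minus the median of autosomal genes, 1 point per array, by group of 3 arrays (N2 dark, lin-35(n745) red). The lin-35(n745) arrays lie below the N2 arrays at L1 (0.38 to 0.45 against 0.52 to 0.54) and at L4, and overlap them in embryos.

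Across the 18 arrays, which share stage and strain, the profiles of single subunits correlated with the mean of the other 8 at 0.739 (dpy-28) to 0.960 (capg-2). The pair with the highest Pearson correlation was capg-1 and kle-2 (0.948) and the pair with the lowest was hcp-6 and dpy-27 (0.532). The genes whose profile was most like the mean profile of the 9 subunits were citk-2 (0.988), mat-3 (0.985), a subunit of the anaphase-promoting complex, top-2 (0.983), mcm-5 (0.977), a subunit of the replicative helicase, and K05C4.9 (0.977). Those most like dpy-27 alone were chd-3, flh-2 and ace-3, each at 0.99 or above, and their strain differences lay between -0.22 and 0.10 log2 units over the 3 stages. These genes were picked by likeness to dpy-27 over the same arrays, so their small strain differences follow largely from that choice.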

How the data were processed

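The authors deposited RMA values, 1 for every probe set on every array, per the submitters' processing notes. No label names the base of the deposited logarithms, which were read as log2 values made by the authors' RMA from their range (2.55 to 15.02). RMA gives no detection call, and precision is limited by how many arrays there are. Of 22625 probe sets, 77 controls were left out. The platform annotation names 1 gene for 20766 of the 22548 tested, several for 887 and none for 895, and 20701 of the first were found in the RefSeq table of WBcel235, which served for names and chromosomes only.

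The 18 arrays were fitted together in limma 3.58.1 (R 4.3.3), with a mean for each of the 6 groups and no covariate, by lmFit and eBayes, and the procedure was tested on simulated data. Tests were two-sided, Benjamini-Hochberg adjusted within each contrast over all probe sets, with a threshold of 0.05. Errors are SE of the fit or SD over 3 arrays. Marker sums add the values on the linear scale. All value columns belong to the 18 samples, leaving 0 unused. The members and lists were chosen with earlier results of these data known. Genes named outside the 9 are those of the dosage compensation recruiters and genes from among the 4 largest called differences of each other list per strain contrast. Also named are the germline markers called lower at L1, the 5 with the profile most like the mean of the 9 and the 3 most like dpy-27. Alternatives were array centring, quantile normalization, a mean level of at least 6, an intensity trend, array weights, a replicate block, each stage alone, the lowest probe set per gene, and leaving out arrays.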

Additional observations from a re-analysis of the deposited data

Results flagged for a closer look

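The strain difference itself differed between stages for 4 of the 9 genes, by the interaction term of the limma fit. Between embryo and L1 the lin-35(n745) minus N2 difference grew by 0.97 ± 0.17 log2 units for hcp-6 (adjusted p = 0.000637), by 1.08 ± 0.15 for capg-2 (adjusted p = 6.07e-05) and by 0.76 ± 0.17 for kle-2 (adjusted p = 0.00729). Between embryo and L4 it grew by 0.76 ± 0.17 for hcp-6 (adjusted p = 0.00553), by 0.53 ± 0.14 for mix-1 (adjusted p = 0.0215), by 1.02 ± 0.15 for capg-2 (adjusted p = 0.000127) and by 0.69 ± 0.17 for kle-2 (adjusted p = 0.0146).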

How the results depend on the processing

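Among single subunit values and X or autosome medians, 351 recomputed values kept direction and side of the threshold (or stayed within the spread), 24 fell short of it, 6 newly passed it, 14 changed sign and 4 moved. Of the counts, 180 stayed within 1.5 times and 12 did not. The number of subunits called in embryos, 3 in the report, was 1 with the lowest probe set per gene and 1 without embryo replicate 1 of both strains, which also lowered the probe sets called to 1265. With L1 arrays alone 1584 probe sets were called, and with array weights 6687 at L4. For L4 minus L1 in N2, 5 subunits were called with array weights and 4 with the lowest probe set, against 2. For the change of the strain difference between L1 and L4, 1 was called with the lowest probe set, against 0. Leaving out 1 array at a time gave 1 to 2 subunits called in embryos, 5 to 7 at L1 and 5 to 6 at L4, with 1499 to 1855, 2399 to 4067 and 2548 to 2931 probe sets. For the interactions it gave 3 to 3 (L1 minus embryo), 3 to 4 (L4 minus embryo) and 0 to 1 (L4 minus L1), and for stage changes 8 to 8 and 2 to 3 in N2 and 6 to 7 and 3 to 5 in lin-35(n745). Among strain differences, the signs that changed belong to values that did not pass the test. On its lowest probe set the called fall of dpy-27 from embryo to L1 became 0.03 in N2 and 0.23 in lin-35(n745), neither of which passed. In embryos dpy-26 was -0.0152 after centring and -0.115 without replicate 1 of both strains, dpy-28 was -0.124 without them, and capg-1 was -0.0361 on the lowest probe set. At L1 the lowest probe set gave 0.0314 for dpy-27 and -0.165 for dpy-28, and at L4 array weights gave 0.0298 for dpy-26. Leaving out 1 array gave in embryos -0.0581 to 0.0604 for dpy-26, -0.241 to 0.0546 for kle-2 and -0.0396 to 0.216 for dpy-28, and at L1 -0.127 to 0.148 for dpy-27 and -0.0438 to 0.312 for dpy-28. Centring moved the X and autosomal medians to -0.0947 and -0.0869 at L1 and to -0.0857 and -0.0641 at L4, and the median of all probe sets for L1 minus embryo in N2 from 0.129 to 0.253. The cause was not tested.

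Deviations over all probe sets gave no general pairing by replicate number. Same-numbered arrays correlated at -0.0521 to 0.269 over 9 pairs, with 1 pair over 0.1, replicate 1 at L4. Replicate 1 of both strains in embryos, which shared a BioDn level apart from the other embryo arrays, correlated at 0.09. With the replicate number as a block, 3, 6 and 5 subunits were called in embryos, L1 and L4, as without it, and dpy-28 newly passed for L4 minus L1 in N2 (adjusted p = 0.0379).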
